A study of Homo sapiens with 26 samples.

Results

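ZBTB24 is a zinc finger protein that binds DNA and is mutated in ICF syndrome, a disorder of immunodeficiency and centromere instability. It was mapped in HCT116, a human colorectal cancer cell line, by ChIP-seq with a FLAG antibody. The peaks described here lie at transcript starts that carry no gene name. They were chosen by position: the midpoint of the peak lay within 1000 bp of the start of an assembled transcript without a gene name, and over 1000 bp from the start of every assembled transcript with one. Of 6173 peaks in the authors' merged list, 233 met this rule (3.77%, 95% Wilson interval 3.33% to 4.28%). Another 909 peaks lay within 1000 bp of a named start, 1721 lay in gene bodies, away from starts, and 3310 lay outside all transcripts.

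The ChIP libraries came from 3 HCT116 lines that stably express FLAG-tagged ZBTB24, 2 that express FLAG-tagged DNMT3B, a de novo DNA methyltransferase, and 2 with the tag alone, each with an input library. RNA was sequenced from cells with a hairpin against ZBTB24 (3 libraries) or a non-targeting hairpin (3), from FLAG-ZBTB24 lines (2) and FLAG-only lines (2), from a DNMT3B knockout line (1) and from unmodified HCT116 cells (1). Per the labels' protocols the FLAG and hairpin lines were made by lentiviral infection and puromycin selection, and each FLAG line was grown from 1 cell, so differences between clones cannot be told apart from those between groups. The deposited lists give 1 merged set of peaks per factor, and the expression tables give 1 pooled value per group. No value per library was at hand, so the peaks below are described with counting intervals and without a test across libraries.

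A transcript assembler builds transcripts from RNA-seq reads and gives a gene name to those that match a reference gene. Starts without a name can belong to an alternative first exon of a known gene, to a non-coding RNA from an enhancer or from the strand opposite a gene, or to a fragment of a longer transcript. The merged assembly held 73520 unnamed and 53788 named transcripts. A ZBTB24 peak lay within 1000 bp of 288 of 49074 unnamed start positions that were themselves over 1000 bp from every named start (0.587%, interval 0.523% to 0.658%), and of 1112 of 34246 named start positions (3.25%, 3.06% to 3.44%). Unnamed starts of transcripts with several exons held a peak at 0.828% of positions (0.684% to 1.003%), and those of transcripts with 1 exon at 0.504% (0.436% to 0.582%). Start positions are not independent, since 1 peak can lie near several of them. The window of 1 of the 233 peaks held the starts of 21 unnamed transcripts. The intervals in this paragraph are therefore too narrow, and shares counted by peak are given below.

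The 233 peaks were about as strong and as wide as the rest of the list. Their score, as given by the authors, had a median of 8.18 (95% interval of the median 7.69 to 8.53), with quartiles of 6.61 and 10.8 and a range from 3.66 to 32.6. The median was 8.26 over all peaks, 8.46 at named starts, 8.10 in gene bodies and 8.29 between genes. A score of at least 20 was given to 10 of the 233 peaks (4.29%, 2.35% to 7.72%) and to 248 of all 6173 (4.02%, 3.56% to 4.54%). Median width was 185 bp at unannotated starts, 198 bp at named starts and 191 bp over the whole list. The highest score at an unannotated start was thus well below the list's maximum of 55.4, which belonged to a named start.

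**Figure D1:**
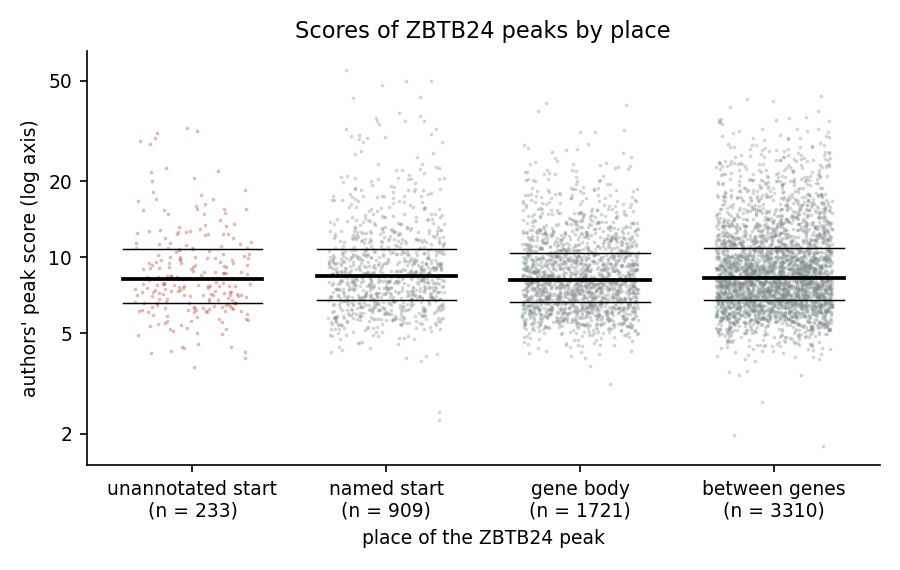
Authors' peak score (log axis) of each ZBTB24 peak by place, with 1 point per peak, a thick line at the median and thin lines at the quartiles. The medians of the 4 places run from 8.10 to 8.46, and the 233 peaks at unannotated starts reach up to 32.6.

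The 12 peaks with the highest scores all lay at starts of transcripts with 1 exon. The strongest, chr2:89249763-89250150 (hg19, score 32.6, rank 31 of the whole list), had its midpoint 37.5 bp inside a transcript of 1603 bp on the plus strand, 138072.5 bp from the nearest named start, that of the microRNA gene MIR4436A. Next came chr1:160645458-160645893 (score 31.7), 369.5 bp 5′ of an unannotated start and 28574.5 bp from the start of SLAMF1, a receptor of immune cells. The peak chr6:109155992-109156670 (score 31.1) lay 301 bp 5′ of a start, 13288 bp from the start of ARMC2. None of these 3 unannotated transcripts overlapped a named one.

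Close to a named promoter lay chr3:52865697-52866067 (score 29.6), 45 bp 5′ of an unannotated start and 1165 bp from the start of ITIH4, an inter-alpha-trypsin inhibitor heavy chain gene. The peak chr19:54483725-54484617 (score 28.8) was in an intron of CACNG8, which encodes a regulatory subunit of AMPA receptors, 782 bp 5′ of a start on the strand of that gene. On the strand opposite its host gene was the transcript at chr11:9060546-9061005 (score 28.1), in an intron of SCUBE2. The same held at chr11:64714759-64715230 (score 22.0), in an intron of C11orf85. It also held at chr19:50141364-50141895 (score 21.7), in an intron of RRAS, a Ras-related GTPase gene, 1770.5 bp from its start. The midpoint there lay 965.5 bp 3′ of the unannotated start, beyond the end of that transcript of 552 bp. A further intron peak, chr1:236922728-236922960 (score 20.5), lay in ACTN2, which encodes a muscle actinin, again with the unannotated transcript on the other strand. The other 3 of the 12 overlapped no named transcript, namely chr1:178525415-178526143 (score 22.7), chr10:69615524-69615855 (score 19.997) and chr18:72782855-72783107 (score 18.4), at 13848, 17752.5 and 134487 bp from the starts of C1orf220, DNAJC12 and ZADH2.

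Most of the unannotated transcripts overlapped no named transcript. The rule leaves out peaks near named starts, and the shares of these kinds over all unnamed starts were not computed. Whether the shares are particular to these peaks was therefore not tested. For 146 of the 233 peaks (62.7%, interval 56.3% to 68.6%) the nearest unannotated transcript overlapped no named transcript on either strand. It shared an assembled gene with named transcripts for 37 peaks (15.9%, 11.7% to 21.1%), overlapped a named transcript on its own strand for 24 (10.3%, 7.02% to 14.9%) and only on the other strand for 26 (11.2%, 7.73% to 15.8%). Score medians of these 4 kinds were 8.24, 7.80, 8.44 and 8.23, in the same order. Of the midpoints, 156 lay outside every named transcript, 70 in an intron and 7 in an exon. The nearest named start was 1000 to 5000 bp away for 56 peaks, 5000 to 50000 bp for 127 and over 50000 bp for 50, with a median of 13991 bp and a maximum of 1193771 bp.

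**Figure D2:**
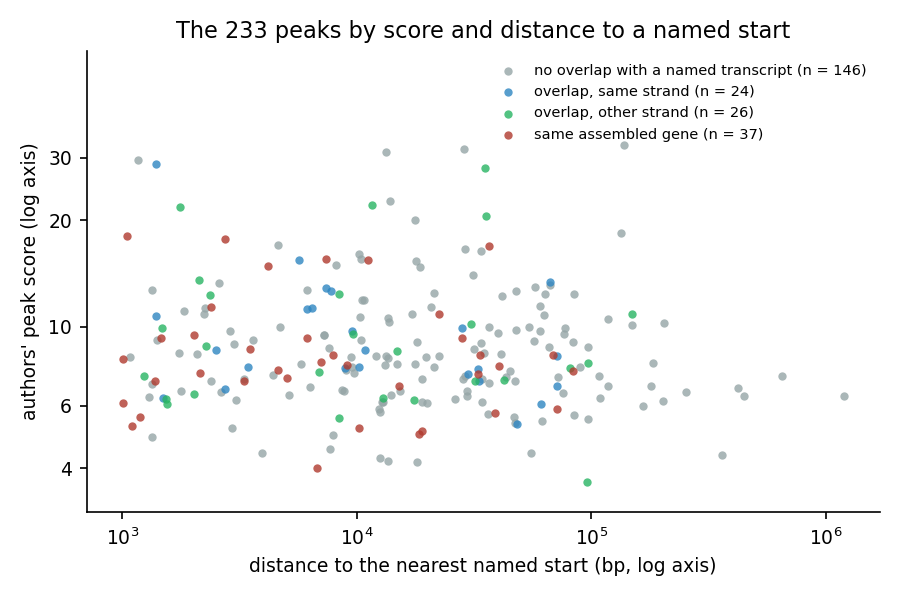
Distance from each of the 233 peak midpoints to the nearest named transcript start (x axis, bp, log) against the authors' score (y axis, log), coloured by how the unannotated transcript lies relative to named ones. High and low scores occur at all distances, and the 37 transcripts that share an assembled gene with named ones have their nearest named start between 1004 and 83798.5 bp away.

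Transcripts with 1 exon made up most of the set, at about their share among the starts that the rule could reach. The nearest transcript had 1 exon for 170 of 233 peaks (73.0%, interval 66.9% to 78.3%), and so did 36520 of the 49074 unnamed start positions over 1000 bp from every named start (74.4%, 74.0% to 74.8%). Over all 73520 unnamed transcripts, including those near named starts, the share was 53.4%. Their spliced length had a median of 318 bp for the 170 transcripts, close to the 345 bp over all unnamed transcripts with 1 exon. For the 63 peaks whose transcript had several exons the median spliced length was 992 bp. Scores of both kinds overlapped widely, with medians of 8.27 (interval 7.71 to 9.003) for 1 exon and 7.69 (7.20 to 8.33) for several exons.

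Peaks were less gathered at unannotated starts than at named ones. The midpoint was a median of 420.5 bp (interval 331.5 to 502.5) from the unannotated start and 268 bp (249 to 286.5) from the named start at the 909 peaks there. Within 250 bp lay 76 of 233 (32.6%, 26.9% to 38.9%) and 428 of 909 (47.1%, 43.9% to 50.3%). The rule fixes the window and not the place of a peak within it. Each distance ran to the nearest start in the window, and the number of starts there was not matched between named and unannotated ones. Of transcripts with several exons, 17 of 63 had the peak within 100 bp of the start (27.0%, 17.6% to 39.0%), against 19 of 170 with 1 exon (11.2%, 7.27% to 16.8%) and 138 of 909 at named starts (15.2%, 12.996% to 17.7%). The midpoint was 5′ of the start for 107 of 170 peaks with 1 exon (62.9%, 55.5% to 69.8%), 31 of 63 with several exons (49.2%, 37.3% to 61.2%) and 523 of 909 at named starts (57.5%, 54.3% to 60.7%). With 1 exon, the midpoint lay inside the transcript for only 36 of 170 peaks (21.2%, 15.7% to 27.9%). With several exons it did for 32 of 63 (50.8%, 38.8% to 62.7%). The remaining midpoints with 1 exon lay 3′ of the start and beyond the end of the transcript.

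**Figure D3:**
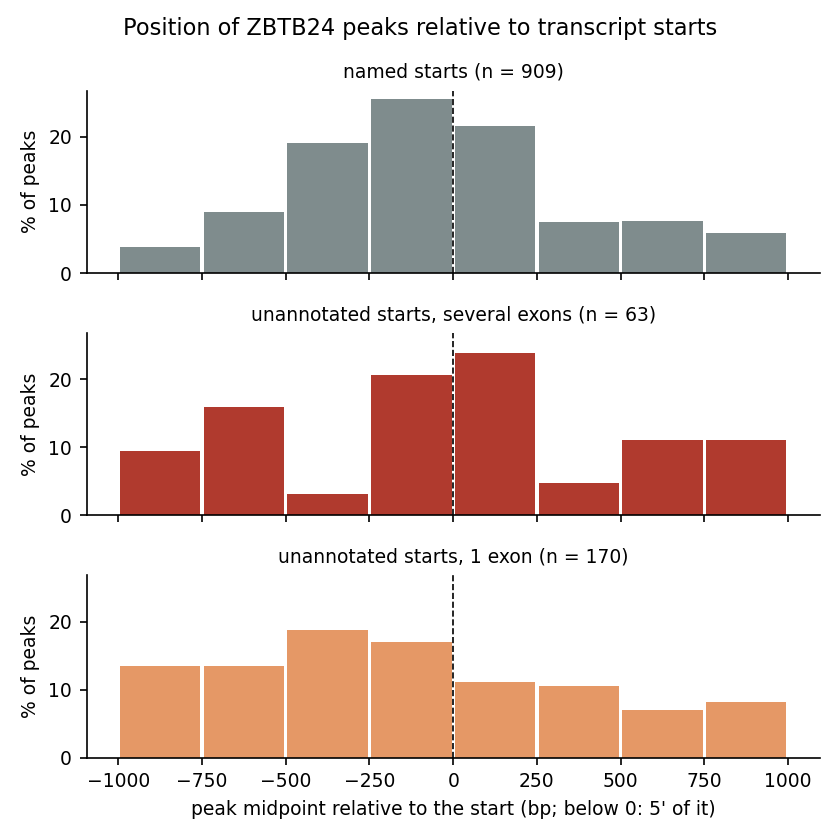
Share of peaks (%) in bins of 250 bp around the transcript start, with bins below 0 on the 5′ side, for named starts, unannotated starts of transcripts with several exons and those with 1 exon. At named starts the 2 bins that meet at the start hold 25.5% and 21.6%, at unannotated starts with several exons 20.6% and 23.8%, and with 1 exon 17.1% and 11.2%.

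Some midpoints fell almost on the start. The 5 highest-scored of those within 20 bp were chr6:150922305-150922470 (score 10.8), 7.5 bp from a start in an intron of PLEKHG1, chr2:178136860-178137348 (score 9.48), 14 bp from a start and 7245 bp from the named start of NFE2L2, the gene of the oxidative stress factor NRF2, and chr10:125754924-125755116 (score 8.75), 15 bp from a start and 96920 bp from the start of CHST15. The other two were chr2:157198773-157198966 (score 7.71), 19.5 bp from the start of a transcript of 3897 bp and 9582.5 bp from the start of NR4A2, which encodes a nuclear receptor, and chr5:156815061-156815203 (score 7.10), 16 bp from a start in an intron of CYFIP2. Of the 36 peaks within 100 bp the median score was 7.72, and of the 197 farther away 8.24. At the edges of the rule, the farthest peak kept was 995 bp from its unannotated start and 1046 bp from the start of SLC16A1-AS1, and the nearest peak left out, chr2:225672201-225672369, was 1009 bp from an unannotated start. On the other side, the peak closest to a named start was 1004 bp from ZBTB25, and a peak at 991.5 bp from AQP7P1 was left out.

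Neighbouring peaks shared starts. The 233 peaks had 216 nearest transcripts, and 32 peaks shared 15 of them, so such peaks are not independent sites. At the transcript near ENPP6 the peaks chr4:185186746-185186962, chr4:185186500-185186649 and chr4:185186291-185186332 had scores of 9.81, 7.04 and 5.37. Near DNAJC12 a peak of 36 bp (score 15.3) stood beside that of 332 bp (score 19.997). Unannotated starts on both strands lay within 1000 bp of 11 peaks (4.72%, 2.66% to 8.25%).

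By chromosome, 27 of the 233 peaks were on chromosome 1, 19 each on chromosomes 3 and 10, and 18 on chromosome 19, while chromosomes 15 and 21 held 1 each. Chromosome 19 held 7.73% of the 233 peaks (4.94% to 11.9%), 2.33% of the whole list (1.98% to 2.74%), 5.50% of the peaks at named starts (4.20% to 7.18%) and 5.16% of the unnamed start positions that lay over 1000 bp from named ones. The whole list held 0 peaks on chromosomes X and Y, for a reason that was not tested, so binding there cannot be judged. The nearest named start belonged to a gene named ZNF for 4 peaks (1.72%, against 1.13% of all peaks), to a long intergenic RNA named LINC for 12 (5.15%, against 5.80%), to an antisense gene for 8 (3.43%, against 3.08%) and to a microRNA or small nucleolar RNA gene for 14 (6.01%, against 5.36%). For 0 of the 233 peaks was it an ICF syndrome gene (DNMT3B, ZBTB24, CDCA7 or HELLS). For each of the 4 classes the share over all peaks lay within the interval of the 233 peaks, whose bounds reached from 0.670% to 4.33% for ZNF genes.

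The 37 peaks at unannotated starts of named genes covered 36 assembled genes. These starts are described as a group because they connect a peak to a gene, and the genes named here were picked after their values were seen. For 25 peaks the unannotated start lay 3′ of at least 1 named start of its gene, and for 12 it lay 5′ of all of them. The first exon overlapped no named exon for 24 peaks, and for 22 of these a later exon did, as for an alternative first exon spliced to known exons. Exon ends were not compared, so an overlap need not mean the same exon. The midpoint lay within 100 bp of the start for 12 of the 37.

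The strongest of the 37 peaks, chr1:113499941-113500225 (score 18.1), lay in an exon of SLC16A1-AS1, an antisense RNA gene. Its unannotated start was only 51 bp from a named one, in an assembled gene that also holds LRIG2, and the midpoint lay 995 bp 3′ of it. Next came genes of lipid, transcription and axon guidance biology. At ACSL1, which encodes a long-chain acyl-CoA synthetase, chr4:185736041-185736291 (score 17.7) had its midpoint 78 bp inside a transcript of 4 exons, 2 of them overlapping named exons, that began 2831 bp from a named start. At HIVEP3, a zinc finger transcription factor gene, chr1:42420888-42421451 (score 16.9) lay 75.5 bp inside a transcript of 2 exons, neither of which overlapped a named exon. At ROBO3, an axon guidance receptor gene, chr11:124746299-124746624 (score 15.4) lay 117.5 bp inside a transcript of 9 exons that began 11039 bp from the named start, with all 9 overlapping named exons. The starts at ACSL1, HIVEP3 and ROBO3 lay within the bodies of their genes.

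Zinc finger genes stood among them too. The peak chr19:37708693-37709031 (score 15.6) lay 245 bp 5′ of a transcript of ZNF383 that began 8259 bp 5′ of its named start. Of that transcript's 5 exons, 4 overlapped named exons. At ZNF232, chr17:5015379-5015724 (score 14.8) lay 87.5 bp inside a transcript of 5 exons that began 10758 bp from the named start. At the low end stood PAX5, a B cell transcription factor gene, with chr9:37027637-37027778 (score 3.997) 26.5 bp 5′ of a transcript of 11 exons, 10 of them overlapping named exons.

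Starts 5′ of every named start of their gene included those of CEP128, a centriole gene, where the peak (score 7.41) lay 65 bp inside a transcript of 25 exons, 24 overlapping named exons. At SLC7A7, an amino acid transporter gene, the peak (score 7.06) lay 51 bp 5′ of a transcript of 11 exons that began 3263 bp upstream of the named start. At CCDC114, a gene of the dynein arms of cilia, the midpoint (score 5.57) was 4 bp from the start of a transcript of 5 exons. Starts farther upstream were those at LITAF, C5AR1, which encodes the receptor of complement C5a, and GRAMD1B, at 39674, 19812 and 71296 bp 5′ of the nearest named start. Named exons were overlapped by 3 of 4 exons at LITAF and 1 of 3 at C5AR1. At GRAMD1B 0 of 2 exons overlapped one, so that transcript is not shown to extend the gene. Back within gene bodies, MEF2C, a transcription factor gene, held 2 peaks at unannotated starts, chr5:88180219-88180362 (score 6.09) and chr5:88080736-88080856 (score 5.72).

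**Figure D4:**
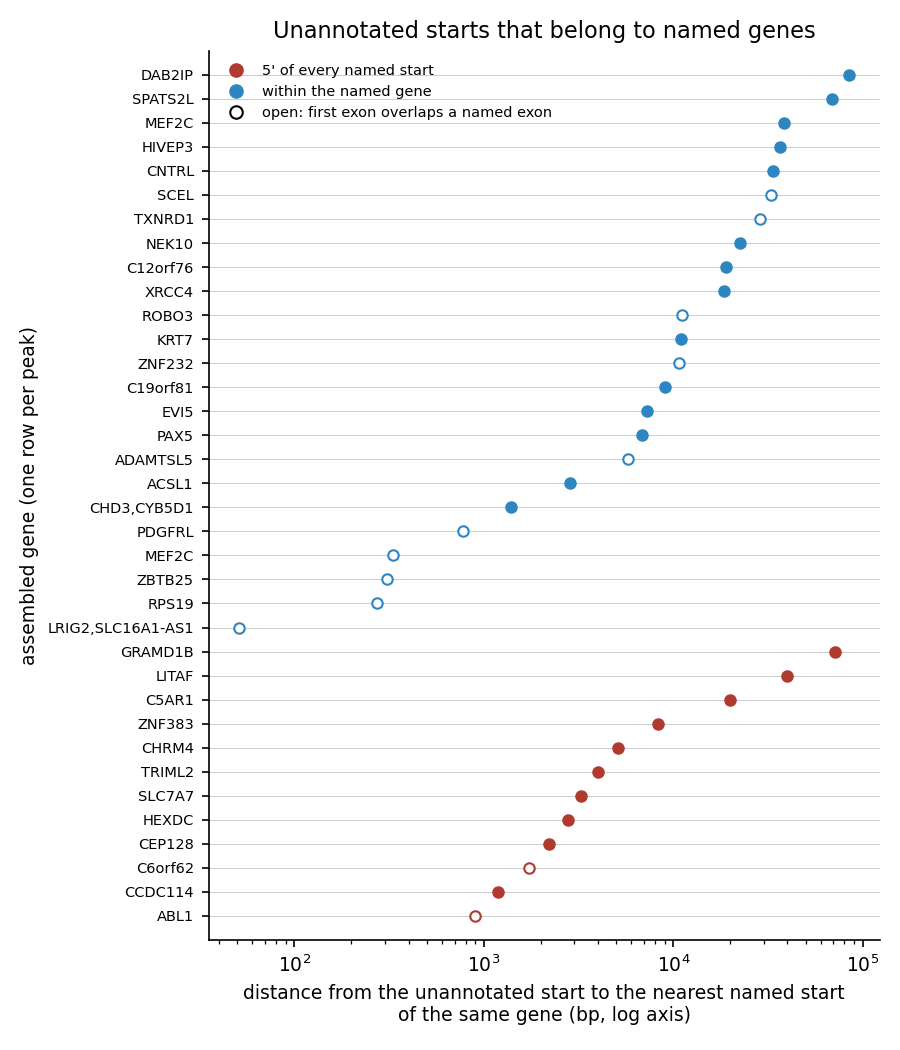
Distance (bp, log axis) from the unannotated start to the nearest named start of the same assembled gene, 1 row for each of 36 of the 37 peaks, red where the start is 5′ of every named start (12) and blue where it is within the named gene (24 drawn). Filled points mark the 24 starts whose first exon overlaps no named exon, and each of these is at least 1186 bp from a named start of its gene.

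No peak at an unannotated start overlapped a DNMT3B peak. The count was 0 of 233, which allows a share of up to 1.29%, and over the whole list 5 of 6173 peaks overlapped one (0.0810%, 0.0346% to 0.189%). The gap to the nearest DNMT3B peak was at least 3156 bp, with a median of 97882 bp (interval 74193 to 131330), against 37125 bp at named starts, 230222 bp in gene bodies and 289893 bp between genes. A DNMT3B peak lay somewhere on the unannotated transcript itself for 13 of 63 peaks with several exons (20.6%, 12.5% to 32.2%) and 0 of 170 with 1 exon, transcripts that were also much shorter. Of the 37 peaks in named genes, 16 had a DNMT3B peak on the named transcripts of that gene (43.2%), and these are 15 of 36 genes (41.7%), against 5923 of 26669 named genes (22.2%). The most DNMT3B peaks lay on the locus of LRIG2 and SLC16A1-AS1 (7), followed by that of CHD3, a chromatin remodeller gene, and CYB5D1 (4), TXNRD1, the gene of a thioredoxin reductase (4), SPATS2L (3) and ZBTB25 (3). The comparison of 41.7% with 22.2% was matched neither for gene length nor for expression in these cells.

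The expression tables bear on few of these starts. ZBTB24 itself was listed only for the FLAG lines, where the authors' deposited table gave 17.8 FPKM with the tag alone and 155 with FLAG-ZBTB24 (q = 0.0192), so the knockdown could not be checked on its target. Of 4 epithelial and colon markers, 2 passed the threshold in the knockdown. By the authors' deposited table the adhesion gene CDH1 fell from 46.3 FPKM with the non-targeting hairpin to 23.2 with the ZBTB24 hairpin, and the intestinal transcription factor gene CDX2 rose from 6.90 to 18.8 (q = 0.00493 for each). Their part in the results for the knockdown was not tested. For the tag alone and FLAG-ZBTB24 the authors' deposited table gave CDH1 at 29.2 and 42.5 FPKM (q = 0.967), the opposite order to the knockdown. It gave KRT20 at 0.455 and 1.24 FPKM (q = 0.787) in the same groups. For wild type and the DNMT3B knockout the authors' deposited table gave KRT20 at 0.558 and 1.49 FPKM, with 1 library per group. KRT20 was not listed for the knockdown, and EPCAM was not listed for any of the 3 comparisons. Every locus in the 3 deposited tables carries a gene name, so the 195 peaks whose window reached no assembled gene with a name have no value there. For the other 38 peaks, in 37 assembled genes, the tables give 1 FPKM value per gene and group (fragments per kilobase of transcript, scaled to library size), which sums all its transcripts and does not single out the one at the unannotated start. Of these 37 genes, 6 were listed for the knockdown (16.2%), against 7.69% of all named genes. The share of all named genes, here and for the FLAG lines and the knockout below, was not matched for expression. Of the 6, 1 passed the authors' threshold of q under 0.05 as higher and 0 as lower, against 12.2% and 9.82% of all listed loci.

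NEK10, a kinase gene with a role in cilia, was the gene past the threshold. By the authors' deposited table its pooled FPKM rose from 0.174 with the non-targeting hairpin to 0.95004 with the ZBTB24 hairpin (2.45 on the log2 scale, p = 0.00155, q = 0.0498). Both values were under 1 FPKM, and q lay just under 0.05. Its peak, chr3:27235408-27235597 (score 10.9), sat in an intron, 70.5 bp inside an unannotated transcript of 6 exons that began 22441 bp from the nearest named start. Of these exons, 5 overlapped named ones. For the FLAG lines the authors' deposited table put NEK10 at 0.436 FPKM with the tag alone and 0.645 with FLAG-ZBTB24 (q = 0.997). For the DNMT3B knockout the authors' deposited table put it at 0.120 FPKM in wild type and 1.01 in the knockout. NEK10 passed the threshold with the hairpin and not with the added protein, and the knockout has 1 library per group.

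The other 5 listed genes of the knockdown did not pass, and 4 of them are described. The authors' deposited table put ACSL1 at 11.8 FPKM with the non-targeting hairpin and 7.56 with the ZBTB24 hairpin (q = 0.163). In the same order, the authors' deposited table put CHRM4, a muscarinic receptor gene, at 2.87 and 1.41 FPKM (q = 0.121) and CNTRL, which encodes a centrosome protein, at 4.94 and 3.18 (q = 0.202). SPATS2L had the higher value with the ZBTB24 hairpin by the authors' deposited table, at 43.0 and 65.7 FPKM (q = 0.128). Of the 6 genes, 3 were higher and 3 lower, so the set had no common direction. All 6 had an unadjusted p under 0.05 by the authors' deposited table, as did the 27 listed genes nearest to the peaks, so listing and a low p go together there.

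With added FLAG-ZBTB24, 5 of the 37 genes were listed (13.5%, against 7.07% of all named genes) and 0 passed the authors' q of 0.05, where 0.228% of listed loci passed as higher and 0.342% as lower. At an unadjusted p under 0.05 the count was also 0. The authors' deposited table put C19orf81 at 11.5 FPKM with the tag alone and 4.64 with FLAG-ZBTB24, and C5AR1 at 1.197 and 2.49 in the same order. It put SLC16A1-AS1 at 2.198 and 1.54 FPKM. CNTRL stood at 3.43 and 5.26 FPKM by the authors' deposited table, the opposite order to the knockdown, and passed in neither.

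In the DNMT3B knockout, 5 of the 37 genes were listed as higher (13.5%, against 8.78% of all named genes), with 1 library per group and therefore no replicate check. The authors' deposited table put SLC7A7 at 0.0857 FPKM in wild type and 0.691 in the knockout, and ROBO3 at 28.7 and 69.7. By the authors' deposited table TRIML2 was at 3.81 and 9.30 FPKM and CCDC114 at 1.85 and 5.74. All loci listed for the knockout have the higher value in it, so that direction is no result.

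**Figure D5:**
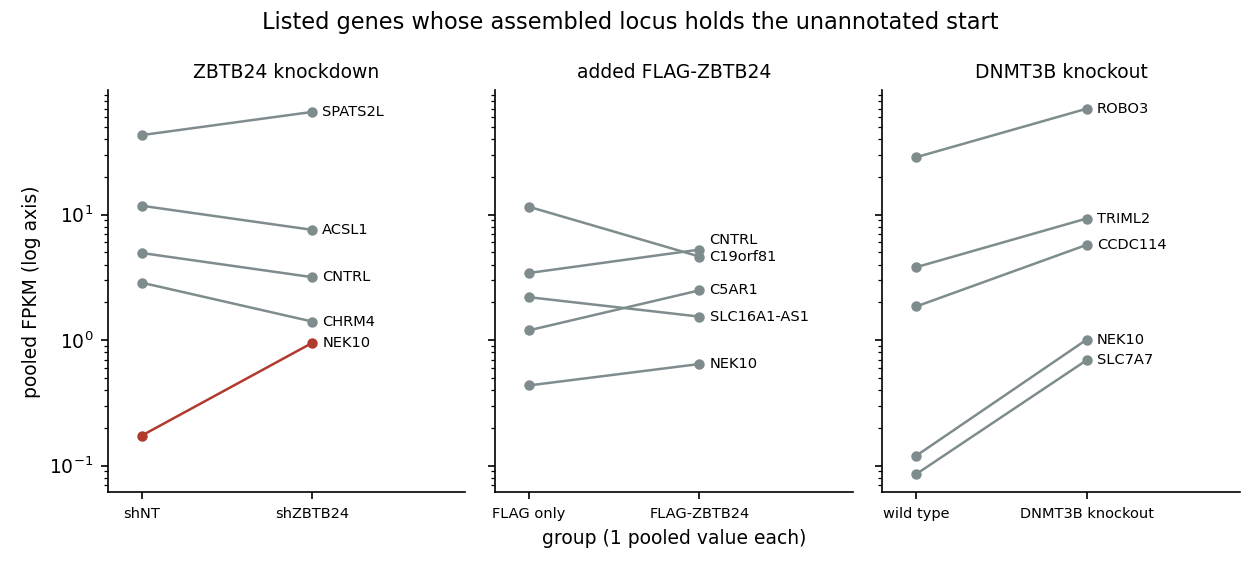
Pooled FPKM (log axis) of the described genes whose assembled locus holds the unannotated start, in each pair of groups, 1 line per gene, red where the authors' q is under 0.05 (not applied to the knockout, with 1 library per group). NEK10 goes from 0.174 to 0.95004 FPKM in the knockdown, and the other lines of that panel run both up and down.

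Genes of the nearest named start were followed as a second link, although their starts lay a median of 13991 bp from the peak. The 233 peaks had 212 such genes, of which 27 were listed for the knockdown (12.7%), with 14 higher and 13 lower. This share was 12.2% for the genes nearest to peaks at named starts, 6.71% for peaks in gene bodies and 8.60% for peaks between genes. Past the threshold, 7 of the 27 were higher and 2 lower, against 12.2% and 9.82% of all listed loci. The same counts were 13 and 9 of 103 for peaks at named starts, 5 and 17 of 91 in gene bodies and 27 and 24 of 193 between genes. With FLAG-ZBTB24, 21 of the 212 were listed (9.91%), against 7.07% of all named genes and 10.5%, 6.41% and 7.45% of the genes nearest to peaks at named starts, in gene bodies and between genes. Of these the authors' deposited table called 0 at q under 0.05 and had 5 with p under 0.05 before adjustment. For the knockout 37 of the 212 were listed (17.5%), against 8.78% of all named genes and 10.8%, 12.5% and 10.2% in the same order of places.

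Among the 7 that rose were BST2, IFIT2 and IFI6, which are known as interferon-induced genes. This class was picked after the values were seen. Its share among all 240 loci that passed as higher in the knockdown was not counted, so no link to these peaks is shown. By the authors' deposited table BST2, which encodes the antiviral membrane protein tetherin, rose from 58.5 to 129 FPKM (q = 0.00493). Its peak, chr19:17505950-17506286 (score 10.7), lay 10339 bp from its start. IFIT2, an antiviral RNA-binding protein gene, went from 1.14 to 3.59 FPKM by the authors' deposited table (q = 0.00493). The 2 peaks chr10:91042525-91042746 and chr10:91043980-91044132, at 1 unannotated start, lay 19070.5 and 17650 bp away. IFI6 also passed as higher by the authors' deposited table (2.71 on the log2 scale), with chr1:27989968-27990106 (score 6.66) 8687 bp from its start. For the tag alone and FLAG-ZBTB24 the authors' deposited table gave BST2 at 39.4 and 19.7 FPKM, IFIT2 at 1.899 and 1.02 and IFI6 at 31.2 and 12.1, the opposite order to the knockdown and not past the threshold. For wild type and the knockout the authors' deposited table gave BST2 at 2.22 and 374 FPKM, IFIT2 at 0.907 and 34.96 and IFI6 at 8.34 and 851, with 1 library per group. The controls differed between experiments, with BST2 at 2.22 FPKM in wild type, 39.4 with the tag alone and 58.5 with the non-targeting hairpin. In the same order IFIT2 differed less, at 0.907, 1.899 and 1.14 FPKM.

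By the authors' deposited table the other rises were those of CYP24A1, the vitamin D hydroxylase gene (3.7998 to 9.03 FPKM), the long non-coding RNA LUCAT1 (2.89 to 7.78 FPKM), the integrin gene ITGB8 (0.385 to 0.917 FPKM) and NEK10. Their peaks lay 41153, 47781, 1494 and 22511.5 bp from the named starts. The authors' deposited table had ABCG1, a cholesterol exporter gene, falling from 0.714 to 0.139 FPKM (q = 0.0285), with the peak 28269.5 bp away. It also had the locus of MIR6821 and the kinase gene PIM3 falling from 42.0 to 25.1 FPKM (q = 0.0447), with the peak 7893 bp from MIR6821. For the tag alone and FLAG-ZBTB24 the authors' deposited table gave ABCG1 at 0.736 and 0.0628 FPKM (p = 0.0059, q = 0.269) and ITGB8 at 0.600 and 1.13 (q = 0.751), the same order as in the knockdown and not past the threshold. For wild type and the knockout the authors' deposited table gave ABCG1 at 0.749 and 8.09 FPKM and ITGB8 at 0.780 and 1.62, with 1 library per group. ITGB8 was the gene past the threshold with the nearest peak. Like ABCG1, it was under 1 FPKM in both groups of the knockdown comparison.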

How the data were processed

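ChIP-seq and RNA-seq libraries were grouped by sample title. MACS2, HISAT2, Cufflinks, StringTie and the hg19 build are listed, without versions, in the submitters' processing notes. Both peak lists carry 1 score per peak, deposited by the authors, and its kind is not given. The tables hold pooled FPKM values per group, their log2 fold change and the p-value and q-value, all as deposited by the authors. Sequencing depth is unknown.

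BED starts were moved by 1 so that positions count from 1. Distances ran from the peak midpoint to transcript starts of the deposited assembly, and the peaks were classified with Python 3.11.15 and pandas 2.3.3, after a check on simulated peaks. Overlap with a DNMT3B peak needed 1 bp. Shares carry 95% Wilson intervals (scipy 1.17.1) and medians carry binomial order-statistic intervals, all for counting error only. A count of 0 is given with the share that 3 counts would make. Knockdown and knockout loci were joined by assembler identifier, FLAG-ZBTB24 loci by symbol. Blank rows were dropped. Rows labelled DNMT3BKOshZB, which match no sample here, were left out of the comparisons.

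Named peaks were the 12 with the highest score, those within 20 bp of a start (at most 5), those at the edges of the rule and those with listed loci. A listed locus is not reported here by name and was not drawn. Other peaks and genes named were picked after their values were seen. The peaks and lists were chosen with earlier results of these data known. Whether the hairpin libraries are separate cultures is not stated, so the deposited p-values may measure technical spread only.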

Additional observations from a re-analysis of the deposited data

How the results depend on the processing

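The number of peaks stayed within 1.5 times of 233 with windows of 500 and 2000 bp, with the peak edge in place of the midpoint, without assembled genes that hold named transcripts, and, chosen after seeing the data, with peaks of 1 start counted once (range 167 to 305). It was 64 with transcripts of several exons only and 112 with scores at or above the median of the list, where the median score was 7.63 and 10.9, both fewer peaks by construction. Overlap with DNMT3B peaks was also 0% with a window of 2000 bp. A larger required overlap and a higher score can only give 0. Counting DNMT3B peaks within 1000 bp can also only give 0, since the smallest gap was 3156 bp. So can a window of 500 bp, which draws only on the 233 peaks and on peaks at named starts, where 0 of 909 overlapped. The 6 peaks with a listed knockdown locus were 5 with at least 1 FPKM. The 1 peak past the threshold became 6 at p under 0.05 in place of q, 0 with at least 1 FPKM (NEK10 is below it) and 2 with a window of 500 bp, where KLK10 joins NEK10; the FPKM minimum and this window were chosen for this count after seeing the data. No paired analysis was possible because the tables hold pooled values, and no library could be left out for the same reason. The planned search for a sequence motif was not run, since no genome of the build was used here.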

Other observations

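The decimals of the deposited scores differ between peaks. For 88 of the 233 peaks at unannotated starts (37.8%) the score ran past the sixth decimal, and for 46 (19.7%) it ended at the sixth. Over the whole list these shares were 36.2% and 22.8%. The sources used here do not give what a score was computed from.

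Among rows labelled DNMT3BKOshZB, 2 genes with an unannotated start within 1000 bp of the midpoint of a ZBTB24 peak were listed. The authors' deposited table put TXNRD1 at 104 FPKM in wild type and 41.1 under that label, and GRAMD1B at 3.72 and 1.39. The label matches no sample used here.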
